A study of Mus musculus with 4 samples.

Results

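The 10 genes Vim, Crip1, Crip2, Lgals1, S100a4, S100a6, S100a10, Tagln2, Anxa2 and Ahnak were read out of 33696 genes in single cells of fine-needle aspirates (FNA) of mouse liver. They encode the intermediate filament protein vimentin, small LIM domain proteins, a galectin, S100 proteins and their partners, and they had been chosen by their measured levels in these same libraries, so every value is a description of those libraries. All 10 symbols matched exactly 1 row of each count file. The genes were followed in 4 kinds of cells that were gated on marker transcripts outside the set, namely B cells, T cells, monocytes and macrophages.

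Male wild-type C57BL/6J mice received the FPC diet (fructose, palmitate, cholesterol and trans-fat) from young adulthood, and non-parenchymal cells were sequenced from 12 biopsies of 3 mice pooled per library. P-LC24 came from mice on 0.05% cholesterol and P-HC24 from mice on 1.25% cholesterol, both at week 24. The same mice were sampled again at week 32, after 8 further weeks in which all of them received 0.05% cholesterol, giving I-LC32 (low throughout) and I-HC32 (high, then low). All groups thus shared the FPC diet, no group on plain chow was analysed here, and each condition had 1 library. Progression (Prog) compares P-HC24 with P-LC24 and intervention (Int) compares I-HC32 with I-LC32.

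Vimentin forms the type III intermediate filaments of leukocytes and mesenchymal cells, and transgelin-2 (Tagln2) binds and stabilises actin filaments. S100a10 pairs with annexin A2 (Anxa2) into a complex at the inner face of the plasma membrane, and the giant scaffold protein Ahnak binds that complex. S100a4 and S100a6 are calcium-binding proteins that act on the cytoskeleton, and galectin-1 (Lgals1) binds β-galactoside sugars on glycoproteins. Crip1 and Crip2 are small LIM domain proteins. In lymphocytes many of these transcripts are known to be low in naive cells and higher in antigen-experienced or innate-like cells. Among monocytes several of them differ between kinds of cells, as shown further on.

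Cell Ranger had called between 7035 and 9828 barcodes per library, with 50941106 to 89257239 unique molecular identifiers (UMIs), and 4930 to 6978 cells per library were kept after filters. Between 86.3% and 92.1% of kept cells fell into a gate and none fell into more than 1. Libraries shared 17 to 41 barcodes with each other, at most 0.583% of the smaller library. Levels are given as CPM, the UMIs of a gene summed over the cells of a gate and scaled to a total of 1e6 UMIs. Intervals are exact 95% Poisson or conditional binomial intervals and cover counting error only, not differences between mice, biopsies or preparations. With 1 library per condition no test between conditions was possible, and a gene was counted as higher or lower when its ratio reached 1.2-fold, among genes detected in 10% or more of the gate in 1 of the 2 libraries and with 100 or more UMIs in the pair. As summed counts are compared, fewer cells of a subtype and less RNA of a gene per cell cannot be told apart within a gate.

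The gates carried the markers of their names, with 1 qualification. In the macrophage gate, Gata6, which is characteristic of peritoneal macrophages, had a UMI in 60.4% to 80.9% of the cells, whereas Clec4f, which defines Kupffer cells, had none in P-HC24, I-LC32 and I-HC32 and a UMI in 1 of 53 cells of P-LC24. At a floor of 3 counts this allows up to 0.686%, 4.29% and 0.498% of cells with a UMI, which does not limit the share of cells expressing the gene. The gate is called macrophages here, with no tissue named. The summed list of 8 peritoneal macrophage genes stood at 7261 to 10186 CPM there, beside 872 to 1421 CPM for 7 Kupffer cell genes. Timd4 is in both lists. Unlike Clec4f, other genes of the Kupffer cell list were detected. From P-LC24 to I-HC32, Cd5l had a UMI in 75.5%, 94.5%, 82.9% and 96.0% of the gated cells. Timd4 had one in 11.3%, 44.4%, 25.7% and 60.8%. Stromal markers, which could bring vimentin and galectin from fibroblasts, were at most 0.523 CPM in sum in every gate, and all 5 of them were at 0 in monocytes of every library.

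The members lie on 7 chromosomes of the GRCm39 genome, all on the forward strand, and 4 of them lie in local pairs. Crip2 (chr12:113103721-113109129) and Crip1 (chr12:113109936-113117503) are 806 bases apart. S100a4 (chr3:90511074-90513354) and S100a6 (chr3:90520140-90535843) are 6785 bases apart with S100a5 between them, and S100a10 (chr3:93462213-93474510) lies 2926369 bases beyond S100a6. Vim is at chr2:13578738-13587639, Lgals1 at chr15:78810875-78814670, Tagln2 at chr1:172327426-172334947, Anxa2 at chr9:69360542-69399077 and Ahnak at chr19:8966311-9055220. All are protein-coding genes. As shown further on, S100a4 and S100a6 were among the 4 members with the widest gap between B cells with B-1 markers and follicular B cells, and Tagln2 had one of the narrowest gaps. The 250 bases before the canonical GENCODE start of these 3 genes on GRCm39 are therefore printed, forward strand, with the letters TATAAA, read on either strand, in capitals.
S100a4 (chr3:90510825-90511074): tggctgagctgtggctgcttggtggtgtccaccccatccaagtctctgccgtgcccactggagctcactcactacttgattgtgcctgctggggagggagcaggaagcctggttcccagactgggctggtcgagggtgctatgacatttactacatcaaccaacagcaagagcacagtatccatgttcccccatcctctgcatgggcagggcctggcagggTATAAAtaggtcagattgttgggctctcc
S100a6 (chr3:90519890-90520139): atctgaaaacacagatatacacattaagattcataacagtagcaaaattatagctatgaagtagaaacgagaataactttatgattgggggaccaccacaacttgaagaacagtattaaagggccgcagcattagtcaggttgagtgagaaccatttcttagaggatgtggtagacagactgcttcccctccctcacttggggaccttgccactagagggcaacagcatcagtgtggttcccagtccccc
Tagln2 (chr1:172327176-172327425): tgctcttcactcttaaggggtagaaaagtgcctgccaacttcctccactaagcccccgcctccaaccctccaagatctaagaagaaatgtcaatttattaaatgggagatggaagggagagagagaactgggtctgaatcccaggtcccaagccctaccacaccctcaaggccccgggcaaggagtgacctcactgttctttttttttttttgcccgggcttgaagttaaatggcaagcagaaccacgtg

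Of the 3 printed windows that of S100a4 held TATAAA, as did 11.9% of the 21770 protein-coding windows of that length. In S100a4 it began 29 bases before the start. None of the 3 held GGGCGG on either strand, which was in 36.3% of all windows. The letters TGANTCA (6.17% of all windows) and the CArG box (1.4%) were in none of the 3 either.

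In B cells most of the set was higher in the high cholesterol library of both comparisons, though not the same members each time. In Prog, 9 of 10 members were higher in P-HC24 by 1.2-fold or more, where 15.1% of the 6603 genes compared were, and 0 of 10 were lower, where 44.4% of the genes were. In Int, 7 of 10 were higher in I-HC32 (12.8% of 7454 genes) and 0 were lower (7.37%). The median log2 ratio of the members was 0.88 in Prog and 0.53 in Int, while that of all genes compared was -0.21 and 0.04.

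Among the cytoskeletal members, Vim stood at 1079.6 CPM in B cells of P-LC24 and 2179 in P-HC24, then 1602 in I-LC32 against 3318 in I-HC32. Its log2 ratio was 1.01 (0.99 to 1.03) in Prog and 1.05 (1.04 to 1.06) in Int. Tagln2 stood at 446, 729, 713 and 1289 CPM in the same order of libraries, with log2 ratios of 0.71 (0.67 to 0.74) and 0.85 (0.83 to 0.87). Both genes were thus lowest in P-LC24 and highest in I-HC32, the library taken after 8 weeks without high cholesterol.

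The LIM domain genes were also higher in both high cholesterol libraries. Crip1 stood at 2676 CPM in P-LC24 and 4204 in P-HC24, then 2892 in I-LC32 against 3772 in I-HC32. The scarcer Crip2 stood at 25.6, 43.3, 35.4 and 92.4 CPM and had the widest ratio of the set in Int, 1.38 (1.30 to 1.47) on the log2 scale. On the same scale Crip1 had 0.65 (0.64 to 0.67) in Prog and 0.38 (0.37 to 0.39) in Int.

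The S100 genes did not move as 1 block. S100a4 stood at 198 CPM in P-LC24 and 471 in P-HC24, then 353 in I-LC32 against 371 in I-HC32, so the high cholesterol library stood out at week 24 and hardly at week 32. Its log2 ratio was 1.25 (1.2 to 1.30) in Prog, the widest of the set, and 0.07 (0.04 to 0.10) in Int. Its neighbour on chromosome 3, S100a6, had 1385, 2942, 2194 and 2307 CPM, with log2 ratios of 1.09 in Prog and 0.07 in Int. S100a10, which lies apart from that pair, stood at 572, 853, 736 and 955 CPM and was higher in both comparisons, by 0.58 and 0.38 on the log2 scale.

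The partners of S100a10 differed from each other. Anxa2 stood at 64.5 CPM in P-LC24 and 129.6 in P-HC24, then 106 in I-LC32 against 190.0 in I-HC32, and its log2 ratios were 1.01 (0.92 to 1.09) and 0.84 (0.78 to 0.89). Ahnak stood at 624, 549.9, 475 and 758 CPM. It was the only member below its low cholesterol library in Prog, with a log2 ratio of -0.18 (-0.21 to -0.15), and reached 0.67 (0.65 to 0.70) in Int. Lgals1 stood at 130.5, 275, 327 and 279.9 CPM, and went from 1.08 (1.02 to 1.14) in Prog to -0.22 (-0.26 to -0.19) in Int.

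**Figure D1:**
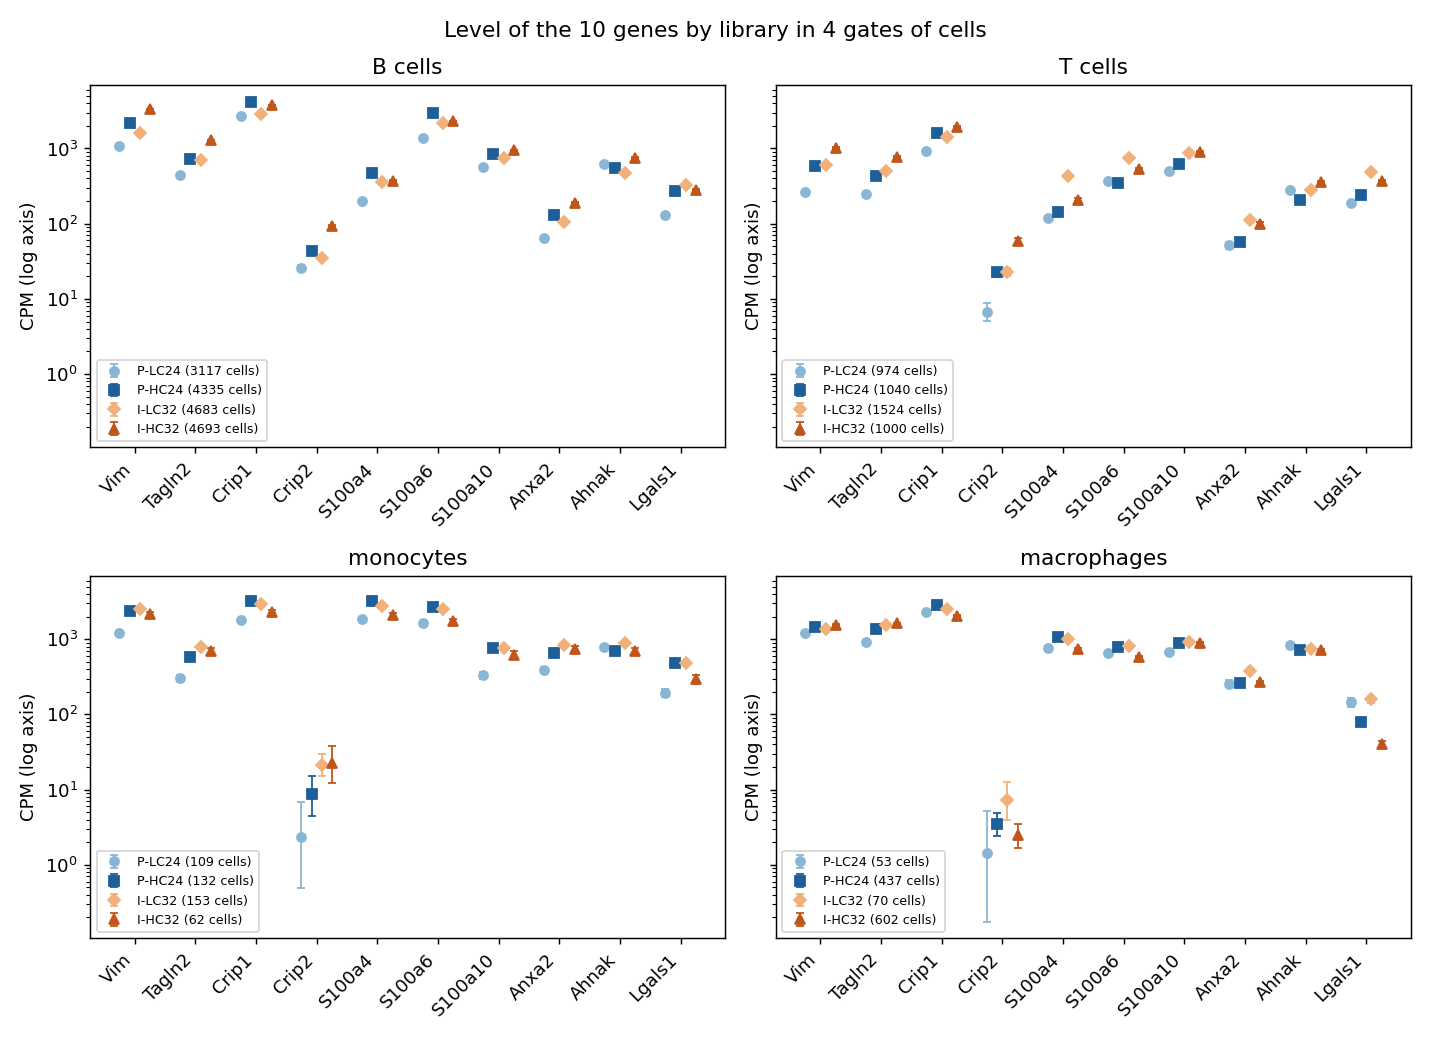
CPM (log axis) of the 10 genes in B cells, T cells, monocytes and macrophages of the 4 libraries, with exact 95% Poisson intervals. In B cells and T cells P-LC24 is the lowest library for most genes, with Ahnak as an exception in both and S100a6 in T cells. Crip2 is at most 22.7 CPM in monocytes and macrophages.

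Markers of other cells and free RNA also differed between these libraries. The sum of 4 mast cell genes in the B cell gate was 19.2 and 18.1 CPM in P-LC24 and I-LC32 and 73.1 and 87.6 CPM in P-HC24 and I-HC32, and the haemoglobin genes ran the other way, 11155 and 13875 CPM against 5581 and 2914 CPM. Their part in the ratios was not tested. In erythroid barcodes, which should lack these transcripts and had a median of 4317 to 5906 UMIs, Vim had a UMI in 4.17% to 21.5% of the barcodes, beside 65.9% to 97.0% of B cells with a median of 5810 to 8550 UMIs. After thinning every cell to 2000 UMIs these shares were 1.70% to 10.7% and 49.0% to 93.6%. Crip2 was detected in 3.02% to 14.5% of thinned B cells and in at most 0.173% of thinned erythroid barcodes.

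The gate holds B cells of different kinds, and the members followed that division to different degrees. B cells with B-1 markers had at least 2 UMIs of Zbtb32, Bhlhe41, Cd9, Spn, Cd5 and Itgam together and none of Fcer2a, and follicular B cells had a UMI of Fcer2a and none of the B-1 genes. No member was used to draw this line. B-1 cells are innate-like B cells that are abundant in the peritoneal and pleural cavities, while follicular B cells recirculate through spleen and lymph nodes.

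S100a4 stood at 549 CPM in B cells with B-1 markers of P-LC24 and 777 in P-HC24, then 579 in I-LC32 against 525 in I-HC32, against 7.08, 32.7, 21.5 and 27.6 CPM in follicular B cells. That was a gap of 19.0-fold to 77.6-fold within a library. S100a6 had a gap of 9.50-fold to 36.1-fold, Anxa2 of 11.2-fold to 33.9-fold and Lgals1 of 9.90-fold to 17.6-fold. The gap was 1.06-fold to 2.74-fold for Tagln2, 1.75-fold to 2.51-fold for S100a10 and 1.47-fold to 4.46-fold for Vim. It was widest in P-LC24 for all 10 members and narrowest in I-HC32 for all but Anxa2 and Crip2, which were narrowest in I-LC32. The median depth was 12379 to 12936 UMIs in cells with B-1 markers and 4932 to 5495 UMIs in follicular B cells, and CPM corrects for that difference in total only.

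Cells with B-1 markers made up 15.1% of gated B cells in P-LC24 and 28.9% in P-HC24, then 31.4% in I-LC32 against 40.7% in I-HC32. They gave 29.1% of the UMIs of the gate in P-LC24 and 46.3% in P-HC24, then 47.9% in I-LC32 against 55.3% in I-HC32. When the shares of both kinds and of the remaining B cells were held at those of the low cholesterol library, the log2 ratio of S100a4 in Prog was 0.72 in place of 1.25 and that of S100a6 0.58 in place of 1.09. In Prog Anxa2 was 0.49 in place of 1.01, Lgals1 0.59 in place of 1.08, Crip1 0.34 in place of 0.65 and Vim 0.79 in place of 1.01. In Int Vim was 1.00 in place of 1.05. Lgals1 in Int was -0.39, so 1 member then counted as lower there, and Ahnak in Prog was -0.46. This calculation was added after the shares had been seen. The share of all genes that it would call higher or lower is not given here.

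Within each kind the counts differed. Among B cells with B-1 markers, 5 of 10 members were at least 1.2-fold higher in Prog (13.5% of the genes compared) and 1 was lower (40.0%), and in Int again 5 were higher (20%) and 1 was lower (9.23%). Among follicular B cells, 6 of the 7 members compared were higher in Prog (15.0% of genes) and 0 were lower (38.3%), and 7 of 8 were higher (15.5%) and 0 lower (8.05%) in Int. Lgals1 entered the Prog count only through P-HC24, with a UMI in 14.1% of the cells against 8.32%. S100a4 and Anxa2 fell below the filter in follicular B cells in both comparisons and Crip2 in Prog. Vim stood at 465, 1186, 1045 and 2408 CPM in follicular B cells, from P-LC24 to I-HC32, and at 2073, 2741, 1909 and 3541 CPM in B cells with B-1 markers. The difference between the libraries was thus wider in follicular B cells, with log2 ratios of 1.35 and 1.2 against 0.40 and 0.89.

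**Figure D2:**
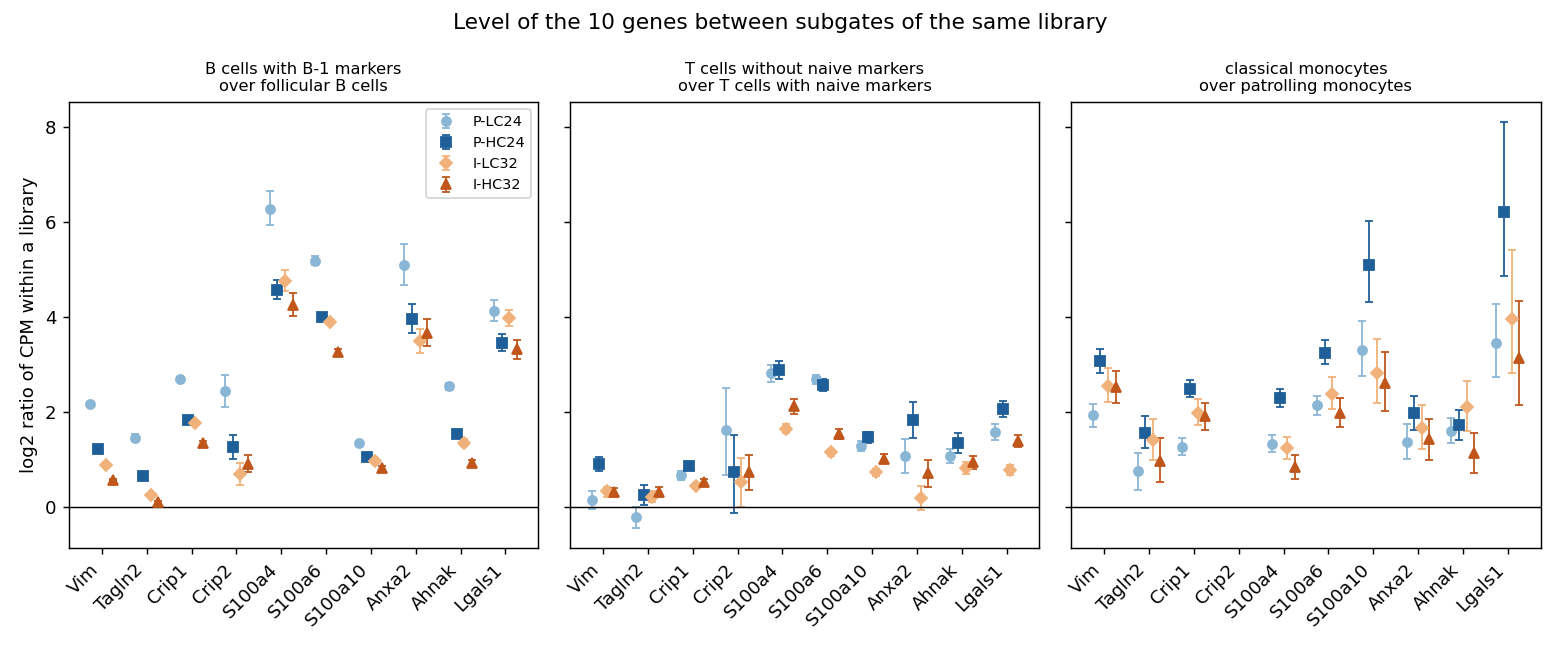
Log2 ratio of CPM between subgates of the same library, with exact 95% intervals, for B cells (left), T cells (middle) and monocytes (right); points that rest on 3 UMIs or fewer in either subgate are left out. S100a4, S100a6, Anxa2 and Lgals1 show the widest gaps among B cells, and Tagln2 lies between 0.857-fold and 1.23-fold among T cells.

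In T cells 4 members were higher in both high cholesterol libraries and 3 were lower in I-HC32 than in I-LC32, while Ahnak, S100a10 and Anxa2 did neither. In Prog, 6 of 10 members were at least 1.2-fold higher (11.6% of 6806 genes) and 1 was lower (46.0%). In Int, 5 were higher (17.5% of 6697 genes) and 3 were lower (10.4%). The median log2 ratio was 0.32 in Prog and 0.19 in Int, and that of all genes compared was -0.23 and 0.04.

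Vim stood at 262 CPM in T cells of P-LC24 and 581 in P-HC24, then 598 in I-LC32 against 1014 in I-HC32. Its log2 ratios were 1.15 (1.08 to 1.22) and 0.76 (0.71 to 0.81). Tagln2 had 248, 432, 502 and 781 CPM and Crip1 had 934, 1626, 1434 and 1945 CPM. These genes and Crip2, at 6.78, 22.5, 22.7 and 58.1 CPM, were higher in the high cholesterol library of both comparisons. The log2 ratio of Crip2 was 1.73 (1.30 to 2.18) in Prog, on 58 UMIs in P-LC24, and 1.36 (1.13 to 1.59) in Int. It had a UMI in 4.62% of T cells of P-LC24 and 12.7% of those of P-HC24, so it entered the Prog count through the library in which it was high.

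S100a4, S100a6 and Lgals1 were lower in I-HC32 than in I-LC32. S100a4 stood at 119 CPM in P-LC24 and 142 in P-HC24, then 427 in I-LC32 against 209.6 in I-HC32, so I-LC32 stood above all others. Its log2 ratio was 0.26 (0.14 to 0.38) in Prog, just under 1.2-fold, and -1.03 (-1.11 to -0.94) in Int. Lgals1 had 191, 241, 491 and 369 CPM, with ratios of 0.33 and -0.41, and S100a6 had 364, 344, 739 and 539 CPM, with -0.08 and -0.45. Both low cholesterol libraries enter these comparisons, and between them S100a4 in T cells was 3.60-fold higher in I-LC32 than in P-LC24.

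Ahnak took the opposite course. It stood at 278, 207, 281 and 359 CPM, with log2 ratios of -0.43 (-0.52 to -0.33) in Prog and 0.36 (0.28 to 0.43) in Int. S100a10, at 506, 628, 884 and 896 CPM, was higher in Prog (0.31) and level in Int (0.02, -0.03 to 0.07). Anxa2, at 51.4, 56.8, 112 and 97.6 CPM, stayed within 1.2-fold in both comparisons, with 0.15 (-0.04 to 0.34) and -0.20 (-0.33 to -0.06).

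T cells without naive markers, which had no UMI of Ccr7 or Lef1 among others, had more S100a4, S100a6 and Lgals1 than T cells with a UMI of Ccr7 or Lef1, which mark naive and central memory cells. S100a4 stood at 513, 789, 1054 and 644 CPM without naive markers, from P-LC24 to I-HC32, and at 73.2, 107, 339.8 and 148 CPM with them. The gap was 3.10-fold to 7.38-fold for S100a4, 2.21-fold to 6.41-fold for S100a6 and 1.71-fold to 4.17-fold for Lgals1. Tagln2 had almost none, 0.857-fold to 1.23-fold. T cells without naive markers were 14.9% of T cells in P-LC24 and 7.02% in P-HC24, then 14.4% in I-LC32 against 14.5% in I-HC32.

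With both shares of UMIs held at those of the low cholesterol library, S100a4 in Prog was at 0.58 and S100a6 at 0.18 on the log2 scale, above the values of the whole gate. In Int the shares with and without naive markers were nearly alike and S100a4 was at -1.09. Among T cells with naive markers, 7 of 10 members were at least 1.2-fold higher in Prog (12.7% of genes) and 1 was lower (43.7%), with Crip2 again admitted only through P-HC24, and in Int 5 were higher (18.2%) and 4 lower (11.8%). CD4 and CD8 T cells, split by a UMI of Cd4 or of Cd8a or Cd8b1, both showed S100a4 lower in I-HC32, with log2 ratios of -1.17 in each. In Prog they differed, with 1.32 in CD4 T cells and -0.04 in CD8 T cells. The sum of 5 NK cell genes in the T cell gate was 251 and 161 CPM in P-LC24 and I-LC32 and 73.8 and 64.4 CPM in P-HC24 and I-HC32. From P-LC24 to I-HC32 the haemoglobin genes there stood at 8628, 5538, 13771 and 1095 CPM and the mast cell list at 12.6, 43.2, 20.5 and 101 CPM. The part of these lists in the ratios was not tested.

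**Figure D3:**
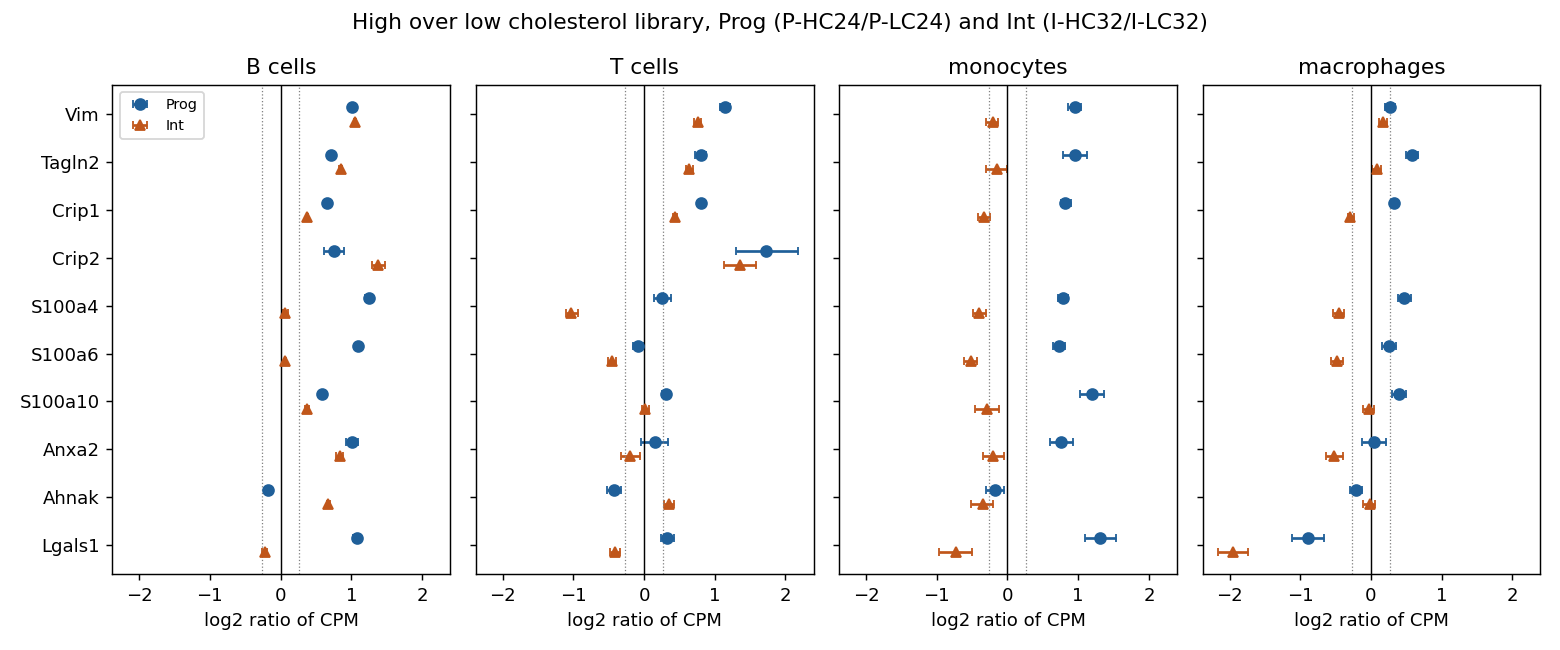
Log2 ratio of CPM between the high and the low cholesterol library in each gate, for Prog (circles) and Int (triangles), with exact 95% intervals; dotted lines mark 1.2-fold, and Crip2 is left out in monocytes and macrophages, where it did not pass the filter on low counts. In monocytes 8 of 9 Prog values lie to the right of zero and all 9 Int values to the left.

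In monocytes the direction of nearly the whole set differed between the comparisons. In Prog, 8 of the 9 members compared were higher in P-HC24 by 1.2-fold or more (21.3% of 4131 genes) and 0 were lower (36.8%), with a median log2 ratio of 0.82 beside -0.13 for all genes. In Int, 0 were higher (23.9% of 3736 genes) and 6 were lower (21.4%), with a median of -0.33 beside 0.01. The gate held 109, 132, 153 and 62 cells from P-LC24 to I-HC32.

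Lgals1 stood at 194 CPM in monocytes of P-LC24 and 482 in P-HC24, then 484 in I-LC32 against 292 in I-HC32. Its log2 ratio was 1.31 (1.10 to 1.53) in Prog and -0.73 (-0.97 to -0.50) in Int. S100a10 had 331, 758, 761 and 622 CPM, with 1.2 (1.03 to 1.36) and -0.29 (-0.46 to -0.12). For both genes P-LC24 was the low library, and P-HC24 and I-LC32 were nearly level.

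S100a4 had 1886, 3266, 2769.6 and 2105 CPM and S100a6 had 1639, 2722, 2534 and 1763 CPM, so P-LC24 and I-HC32 were the lower libraries of both. Vim had 1223, 2367, 2494 and 2149 CPM, Crip1 had 1816, 3214, 2936 and 2335, and Tagln2 had 301, 583, 785 and 707. Anxa2 had 385, 654, 849.9 and 741 CPM, again lowest in P-LC24. Ahnak, at 798, 703, 889 and 695 CPM, was the member with the narrowest spread. Crip2 had 2.37 to 22.7 CPM and was not compared.

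Monocytes are of different kinds as well. Classical monocytes, gated here by at least 2 UMIs of Ly6c2 and Ccr2 together and none of Ace and Treml4, enter inflamed tissue from the blood, and patrolling monocytes, gated by Ace or Treml4 without Ccr2, keep to the inside of vessels. Vim stood at 1789, 3454, 2902 and 2944 CPM in classical monocytes and at 471, 412, 496 and 517 CPM in patrolling monocytes, a gap of 3.80-fold to 8.39-fold. S100a10 had a gap of 6.12-fold to 34.1-fold and Lgals1 of 8.83-fold to 74.2-fold, the last of these on 4 UMIs in patrolling monocytes of P-HC24. S100a4, with 1.78-fold to 4.87-fold, and Tagln2, with 1.67-fold to 2.94-fold, had narrower gaps.

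Classical monocytes gave 23.8% of the UMIs of the gate in P-LC24 and 37.9% in P-HC24, then 48.0% in I-LC32 against 23.4% in I-HC32, and patrolling monocytes gave 32.5%, 24.9%, 7.98% and 29.1%. With these shares held at those of the low cholesterol library, 8 members were again higher in Prog and Ahnak was lower (-0.33), with a median of 0.68, whereas in Int 1 member was lower in place of 6 and the median was -0.09. That member was Lgals1, at -0.36, with S100a4 next at -0.26. The share of all genes called with fixed shares is not given here, so these counts cannot be set beside it. Among the 12 to 66 classical monocytes per library, 8 of 9 members were higher in Prog (28.6% of genes) and 1 was lower (32.4%), and 0 were higher (23.5%) and 3 lower (23.7%) in Int. In patrolling monocytes Vim, S100a4 and S100a6 had log2 ratios of -0.19, -0.21 and -0.54 in Prog, so the higher levels of P-HC24 were not seen there. Haemoglobin genes stood at 6891 CPM in monocytes of P-LC24 and at 94.0 to 1269.5 CPM in the other libraries, and their part was not tested.

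**Figure D4:**
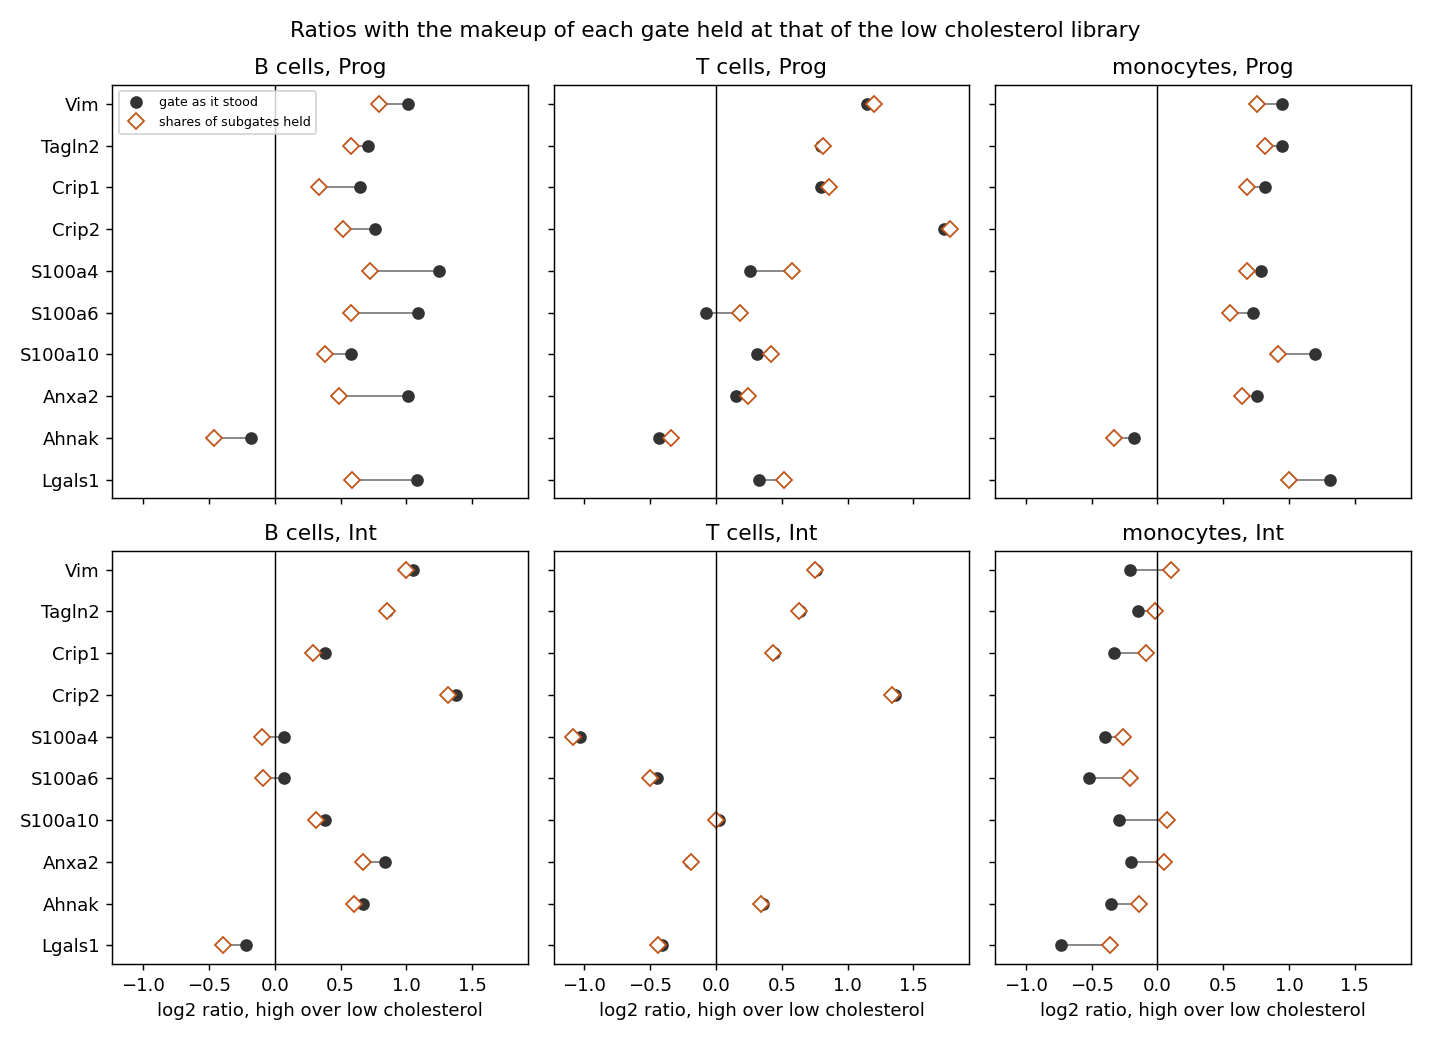
Log2 ratio of each gene in B cells, T cells and monocytes as the gate stood (filled circles) and with the UMI shares of its subgates held at those of the low cholesterol library (open diamonds); Crip2 is left out in monocytes. The diamonds lie closer to zero for the S100 genes, Anxa2 and Lgals1 in B cells in Prog and for most genes in monocytes in Int, and they barely move in T cells in Int.

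In macrophages galectin-1 had the widest ratio of the members compared in both comparisons. In Prog, 5 of the 9 members compared were at least 1.2-fold higher (16.6% of 7477 genes) and 1 was lower (45.3%), and the median was 0.27 beside -0.21 for all genes. In Int, 0 were higher (14.4% of 8316 genes) and 5 were lower (36.5%), with a median of -0.29 beside -0.14. The low cholesterol libraries held few of these cells, 53 in P-LC24 and 70 in I-LC32, against 437 in P-HC24 and 602 in I-HC32.

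Lgals1 was lower in the high cholesterol library of both comparisons, unlike in any other gate. It stood at 145 CPM in P-LC24 and 78.1 in P-HC24, then 159 in I-LC32 against 41.0 in I-HC32, with log2 ratios of -0.89 (-1.12 to -0.66) and -1.95 (-2.16 to -1.74). The share of macrophages with a UMI was 66.0%, 33.9%, 44.3% and 25.1%, and 18.9%, 10.5%, 14.3% and 4.82% after thinning to 2000 UMIs. Lgals3, a galectin abundant in macrophages, stood at 583, 545, 652 and 447 CPM.

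Tagln2 stood at 916, 1367, 1547 and 1637 CPM, and its log2 ratio was 0.58 (0.49 to 0.66) in Prog and 0.08 (0.02 to 0.14) in Int. S100a4, at 776, 1076, 1012 and 739 CPM, went from 0.47 to -0.45. Vim stayed between 1223 and 1549.7 CPM and Ahnak between 719 and 837 CPM over all libraries, and Anxa2 stood at 383 CPM in I-LC32 and at 256 to 267 CPM in the other libraries. The gate of P-LC24 also held more transcripts of dendritic and NK cells. Its dendritic cell list stood at 58.5 CPM and its NK cell list at 47.6 CPM, against at most 11.1 and 1.71 CPM elsewhere. Vim had a UMI in 90.6% of its cells, beside 99.5% or more in the other libraries. The mast cell list ran the other way, at 5.05 and 10.2 CPM in P-LC24 and I-LC32 and 86.5 and 37.5 CPM in P-HC24 and I-HC32. The neutrophil list stood at 445 CPM in P-LC24 and 512 in P-HC24. The part of these lists in the ratios was not tested.

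In macrophages with a UMI of Gata6, 32 cells of P-LC24 and 47 of I-LC32 against 304 and 487, 2 of 9 members were higher and 2 lower in Prog, with a median of 0.10, beside 1354 higher and 2300 lower of 6524 genes. In Int 0 were higher and 4 lower, beside 1341 higher and 2208 lower of 7755 genes. Lgals1 had -0.42 and -1.74 there, S100a4 had 0.34 and -0.32, and Tagln2 had 0.33 and -0.04. This setting was chosen after the other markers in P-LC24 had been seen.

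The members can also be counted per cell. After thinning to 2000 UMIs, B cells had a UMI of 3.03 members on average in P-LC24 and 4.54 in P-HC24, then 4.44 in I-LC32 against 5.62 in I-HC32. The share of B cells with 5 or more members was 25.4%, 51.9%, 48.9% and 73.7%. T cells had 2.92, 3.38, 4.04 and 4.39 members and macrophages 5.30, 5.99, 5.84 and 5.88. Erythroid barcodes had 0.131 to 0.533, with the higher values in P-HC24 and I-HC32 as well. Within kinds of B cells the range was narrow in cells with B-1 markers, 6.35 to 6.84, and wider in follicular B cells, 2.11 to 3.93.

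**Figure D5:**
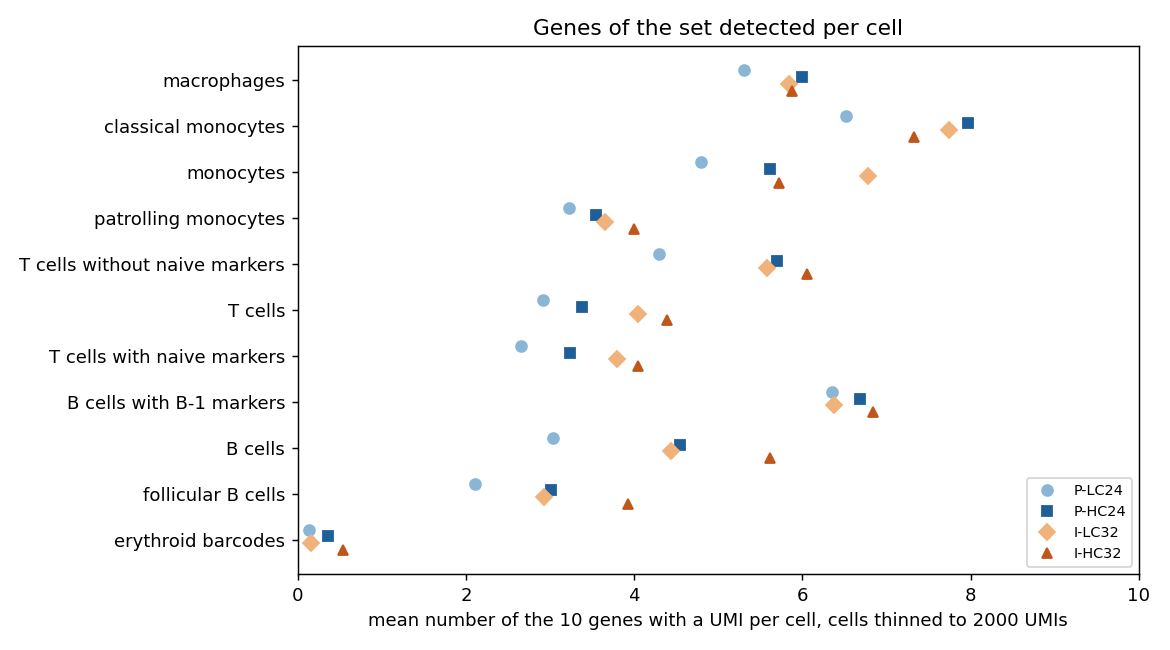
Mean number of the 10 genes with a UMI per cell, with cells thinned to 2000 UMIs, in each gate and subgate of the 4 libraries. Erythroid barcodes lie below 0.6, follicular B cells between 2.11 and 3.93, and B cells with B-1 markers between 6.35 and 6.84.

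The members did not share 1 pattern over the kinds of cells. Over 22 combinations of subgate and library with at least 50 cells, which share libraries and are not independent, log2(CPM + 10) of S100a4 and Anxa2 had a Pearson correlation of 0.96, of Crip1 and S100a6 0.86, of Vim and Tagln2 0.84 and of Vim and Crip1 0.83. Crip2 had -0.01 with S100a4 and with Anxa2, and Lgals1 had 0.09 with Tagln2. The neighbours Crip1 and Crip2 had 0.54 and the neighbours S100a4 and S100a6 0.75. S100a10 and Anxa2, which encode the partners of 1 complex, had 0.27.

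Of 8992 other genes with at least 20 CPM in 1 of these combinations, those closest to the mean standardised level of the members were Rtraf (0.839), Glp2r (0.838), Prelid1 (0.837), Creb3l2 (0.824), Plec (0.809), Nme1, Dynll1, Gas7, Ube2m and Pdcl3 (0.786). Plec encodes plectin, a linker between intermediate filaments and other parts of the cytoskeleton. Among the members, each of which is part of that mean and so raised by construction, the correlation ran from 0.527 for Crip2 to 0.93 for Crip1. The mean was highest in classical monocytes of I-LC32 (1.11) and in B cells with B-1 markers of I-HC32 (1.07), and lowest in follicular B cells of P-LC24 (-1.51).

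Other genes of the same families, listed by family and not by their change, were compared in the same way. In monocytes 4 of 4 other S100 genes were higher in Prog, and 3 of 4 were lower and 1 higher in Int, where the intervals of S100a8 and S100a1 included zero. Of all genes compared in monocytes, 21.3% were higher in Prog and 21.4% lower in Int. Among them S100a11, which also binds annexins, stood at 505, 924, 783 and 504 CPM, and the myeloid alarmin S100a8 had the widest ratio in Prog, 2.45 (1.79 to 3.17). Of the other annexins 5 of 7 were past 1.2-fold higher in Prog and 4 of 7 lower in Int, but in Prog the intervals of Anxa3, Anxa6, Anxa7 and Anxa11 included zero, as did those of Anxa3 and Anxa11 in Int. The neutrophil list, which holds S100a8, stood at 70.3, 139, 148 and 72.9 CPM in monocytes, and its part was not tested. Anxa1, which limits leukocyte adhesion, had log2 ratios of 0.59 and -0.48.

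In B cells, 2 of 2 other S100 genes and 2 of 4 other annexins were higher in Prog, and 0 of 3 and 1 of 6 in Int, beside 15.1% of all genes compared in Prog and 12.8% in Int. S100a11 stood at 349.7, 474, 455 and 396 CPM in B cells. Of the intermediate filament and lamina genes, Lmna, which encodes lamin A and C, was higher in both comparisons, at 151, 231, 298 and 452 CPM. It was the 1 of 3 genes of that list that was higher in Prog, with 0 lower. In Int 3 of 4 were higher and 1, Krt18, was lower (-1.27). Of 17 genes of the actin cytoskeleton, 8 were higher and 2 lower in Prog (44.4% of all genes lower), and 0 were higher and 2 lower in Int (7.37%). In Prog they ran from Tmsb10, a thymosin that binds actin monomers (-0.35 on the log2 scale), to Capg, an actin-capping protein (0.89).

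In T cells, Lmna was higher in both comparisons too, with log2 ratios of 1.12 (0.84 to 1.40) and 0.88 (0.73 to 1.03). Of the same list Lmnb1 (-0.54) and Plec (-0.44) were lower in T cells in Prog and within 1.2-fold in Int (-0.05 and 0.08). In macrophages Lmna was lower in both comparisons (-0.48 and -0.49). Of the actin genes in T cells, 5 of 17 were higher (11.6% of all genes compared) and 1 lower (46.0%) in Prog. In Int 0 of 16 were higher (17.5%) and 6 lower (10.4%), with Actb at -0.44. In macrophages 10 of 17 actin genes were lower in Int and 0 were higher, where 36.5% of all genes compared were lower. Coro1a, which encodes a coronin of leukocytes, went from 171 CPM in I-LC32 to 34.5 CPM in I-HC32. Immediate early genes, which also respond to tissue dissociation, were higher in 7 of 10 in Prog and 9 of 10 in Int in T cells, and in 6 and 9 of 10 in macrophages. Of all genes compared, 11.6% in Prog and 17.5% in Int were higher in T cells, and 16.6% and 14.4% in macrophages. Nr4a1 had the highest ratio in T cells in Prog (0.80) and Egr1 in Int (0.83), on the log2 scale, and Junb (0.95) and Ier2 (0.98) had it in macrophages. In B cells 1 was higher (15.1% of all genes compared) and 4 lower (44.4%) in Prog, so the lower count was near that share. In Int 0 were higher (12.8%) and 4 lower (7.37%). Fos was lowest in Prog (-0.88) and Egr1 in Int (-0.61). The part of the immediate early genes in the ratios of the members was not tested.

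The remaining lists were short and divided. Of 4 other LIM domain and transgelin genes, 1 was higher (15.1% of all genes compared) and 1 lower (44.4%) in B cells in Prog. In Int 1 was higher (12.8%) and 0 were lower (7.37%) there. In T cells 1 of 4 was higher (11.6%) and 1 lower (46.0%) in Prog, and 2 higher (17.5%) and 1 lower (10.4%) in Int. In macrophages 2 of 4 were higher (16.6%) and 1 lower (45.3%) in Prog, and 0 higher (14.4%) and 2 lower (36.5%) in Int. Of 3 other galectins in B cells, 1 was higher and 1 lower in Prog, and 1 higher and 0 lower in Int. The shares of all genes are those given above for B cells.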

How the data were processed

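Cells from pooled liver aspirates were sequenced in 4 libraries with a droplet 3' kit. The files the authors deposited hold raw UMI counts for each gene in each barcode, made with Cell Ranger 9.0.1 on GRCm39 per the submitters' notes; the feature and barcode files hold names only. Here, barcodes with at least 500 UMIs, 300 genes and at most 10% mitochondrial UMIs were kept, the highest Scrublet scores (0.8% per 1000 cells) and barcodes with 50% or more haemoglobin UMIs were left out, and cells were gated on raw marker UMIs. UMIs were summed per gate and given as CPM. Ratios carry exact conditional 95% intervals. No test was run, as each condition had 1 library. The members, gene lists and tests were chosen with earlier results of these data known. All members were named, and of the other lists some of the highest, lowest or most abundant genes; S100a1 and single annexins were named after their values were seen. Promoter windows came from GRCm39 with GENCODE starts. The ratio script was tested on simulated data. Results were recomputed under 14 other settings, and 2 more were chosen after seeing the data. Scripts ran in Python 3.11.15 with scanpy 1.11.5, pandas 2.3.3, scipy 1.17.1 and numpy 2.4.6. A further marker used in the gating of T cells, a list of adhesion genes and a promoter window are not reported here.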

Additional observations from a re-analysis of the deposited data

Results flagged for a closer look

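For 9 combinations of gene and gate the 2 comparisons had opposite directions, each at least 1.2-fold. The share of all genes with such opposite calls is not given here, so this count cannot be set beside it. Of all genes compared in monocytes, 21.3% were higher in Prog and 21.4% lower in Int. In macrophages these shares were 16.6% and 36.5%, and in T cells 11.6% and 10.4%. For the other direction, 46.0% of genes in T cells were lower in Prog and 17.5% higher in Int. The difference between the comparisons was not tested, since each condition had 1 library.

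Monocytes gave 5 of these combinations. The log2 ratios of Lgals1 were 1.31 in Prog and -0.73 in Int, a difference of 2.04, and those of S100a10 were 1.2 and -0.29, a difference of 1.49. The differences were 1.26 for S100a6 (0.73 and -0.52), 1.19 for S100a4 (0.79 and -0.40) and 1.15 for Crip1 (0.82 and -0.33). With the shares of classical and patrolling monocytes held fixed, the Int ratios of S100a10 (0.07), Crip1 (-0.09), S100a6 (-0.21) and S100a4 (-0.26) were within 1.2-fold, and with no limit on UMIs of other classes Crip1 (0.01) and S100a10 (0.13) were positive. In macrophages they were 0.93 for S100a4 (0.47 and -0.45) and 0.62 for Crip1 (0.33 and -0.29). In T cells Lgals1 had 0.33 and -0.41, a difference of 0.74, and Ahnak had -0.43 and 0.36, a difference of -0.78.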

How the results depend on the processing

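Of the counts of members higher or lower under the alternatives, 215 were within 1.5 times the main count and 25 were not. Of the medians over members 78 stayed within the counting interval of the main value and 42 did not. Of the ratios of single genes 815 did and 321 did not, and 4 more, all past 1.2-fold in the main setting, changed sign. Ratios that changed sign from within 1.2-fold are not among those 4. With fixed shares these included Vim in monocytes (-0.21 to 0.10) and S100a4 in B cells (0.07 to -0.10), both in Int. The cause was not tested. In Prog, macrophages had 3 members higher and 2 lower without removal by doublet score, beside 1267 higher and 3390 lower of 7500 genes. They had 2 lower with doubled marker UMIs (3244 of 7269 genes lower). By UMIs per cell without depth scaling 1 was higher and 2 lower (631 and 4700 of 7477 genes). At 1.5-fold 0 were higher (441 of 7477 genes). T cells had 0 lower in Prog with no limit on UMIs of other classes (3187 of 6909 genes lower). They also had 0 lower relative to the median gene (1452 of 6806) and at 1.5-fold (888 of 6806). Monocytes had 1 lower in Prog by UMIs per cell (2108 of 4131 genes lower) and by the mean of each cell's CPM (1381 of 4131). In Int, macrophages had 3 lower with 0 UMIs of other classes allowed (2297 of 7069 genes lower). They had 1 higher relative to the median gene (1960 of 8316 genes higher) and by the mean of each cell's CPM (1390 of 8316). At 1.5-fold 1 was lower (994 of 8316). B cells in Int had 1 lower relative to the median gene (703 of 7454 genes lower). At 1.5-fold in Int, T cells had 3 higher and 1 lower (219 and 118 of 6697 genes), and monocytes 1 lower (245 of 3736). Of the added settings, Gata6 macrophages had 2 higher and 2 lower in Prog (1354 and 2300 of 6524 genes). Fixed shares gave 1 lower in B cells in Prog and in Int and 1 lower in monocytes in Prog and in Int. The count over all genes with fixed shares is not given here.

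With no limit on UMIs of other classes, S100a6 in T cells (0.10), Crip1 (0.01) and S100a10 (0.13) in monocytes turned positive in Int, as did S100a10 in monocytes with fixed shares (0.07). Scaling moved the calls over all genes: the share of them that were higher in B cells was 25.3% in Prog and 63.4% in Int by CPM, 65.5% and 97.7% by UMIs per cell, and 55.6% and 50% relative to the median gene. In T cells it was 20.1% and 62.6%, 8.15% and 30.2%, and 55.8% and 51.6%, in monocytes 36.7% and 52.7%, 19.5% and 25.4%, and 53.9% and 50.2%, and in macrophages 26.8% and 28.3%, 11.8% and 10.3%, and 50.5% and 49.9%. No paired analysis was possible because each condition had 1 library, and no replicate could be left out. Counting precision is low for the 12 to 66 classical and 21 to 55 patrolling monocytes per library and for the 32 and 47 Gata6 macrophages of the low cholesterol libraries.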
